A study of Mus musculus with 8 samples.

Results

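Formative and primed pluripotency factors were followed through bulk RNA-seq of mouse embryonic stem cells (ESCs) moved towards a 2-cell-like state with small molecules. The set is 8 genes, taken by symbol: Otx2, Pou3f1, Fgf5, Zic2, Foxd3, Sox3, Grhl2 and Utf1. All 8 were found among the 55573 genes of the deposited tables and all 8 passed the low-count filter, which kept 20608 genes. Polyadenylated RNA was sequenced in 8 libraries, 2 in each of 4 groups.

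The first group, 2C::GFP+/SA, had cells of the 2C::GFP+ genotype treated with 2 µM SGC0946 and 2 µM AS8351, and kept in 10 ng/ml IL6/sIL-6R (the cytokine with its soluble receptor) without LIF. The second, 2C::GFP+/SGC, had the same genotype with 2 µM SGC0946 and 10 ng/ml LIF. The third was 2C::GFP+ without compounds, and the last was untreated wild-type ESCs (mESC), both with 10 ng/ml LIF. Each comparison of 2C::GFP+/SA with another group thus also exchanges LIF for IL6/sIL-6R. SGC0946 blocks DOT1L, which methylates histone H3. AS8351 is known as a blocker of KDM5B, which removes methyl groups from that histone. Both treated groups were in KnockOut medium with serum replacement. For untreated ESCs the labels list that medium with LIF and also N2B27 with LIF plus MEK and GSK3 inhibitors, so the medium of mESC and of 2C::GFP+ is not settled. The columns used for 2C::GFP+ carry the name of the serum replacement and were assigned by elimination, so every comparison with 2C::GFP+ rests on that assignment. The labels do not name the promoter of the reporter or say whether cells were sorted for it. They also do not say whether the 2 replicates were separate cultures, so p-values measure only the spread between these libraries, which may be technical.

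Pluripotent cells of the mouse pass from a naive state, like that of the early epiblast before implantation, through a formative state to a primed state that is ready to form the germ layers. The genes studied here mark that passage. Otx2 encodes a homeobox factor that helps start it by taking OCT4 to new enhancers. Pou3f1 encodes the POU factor OCT6, Sox3 a relative of SOX2, Zic2 a zinc finger factor and Foxd3 a forkhead factor. Fgf5 encodes a secreted growth factor that is the usual marker of primed epiblast. Grhl2 encodes a grainyhead-like factor that switches on enhancers of epithelial genes as naive cells leave that state. Utf1 encodes a chromatin-bound protein of undifferentiated cells and is a known target of OCT4 and SOX2.

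The positions below are those of GENCODE M21 on GRCm38. Pou3f1 (ENSMUSG00000090125) lies on chromosome 4, 124656807 to 124660655, and Foxd3 (ENSMUSG00000067261) on the same chromosome, 99656299 to 99658622. Fgf5 (ENSMUSG00000029337) lies on chromosome 5, 98254184 to 98277030, and Utf1 (ENSMUSG00000047751) on chromosome 7, 139943789 to 139945112. Otx2 (ENSMUSG00000021848) and Zic2 (ENSMUSG00000061524) are both on chromosome 14, at 48657677 to 48673819 and at 122475435 to 122479852. Grhl2 (ENSMUSG00000022286) lies on chromosome 15, 37233036 to 37363569, and Sox3 (ENSMUSG00000045179) on chromosome X, 60891366 to 60893430. Pou3f1, Foxd3 and Sox3 are single-exon genes, whereas the 6 annotated transcripts of Grhl2 merge into 17 exons. Antisense genes overlap the exons of 3 members: Otx2os1 covers 3.65% of the Otx2 exons, Gm2164 covers 8.57% of those of Pou3f1, and Gm16136 covers 1.96% of those of Grhl2. The strand setting of the counting is not given in the sources used here, so reads in those stretches cannot be assigned to a strand. The antisense genes had at most 21 counts (Otx2os1), 2 counts (Gm2164) and 49 counts (Gm16136) in any library.

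Promoter sequences from RefSeq (GRCm38.p6) were at hand for 4 of the 8 genes. The stretches of 3 of them are shown. Under the full treatment Fgf5 rose against each of the other groups. Utf1 was called lower only against 2C::GFP+, close to the threshold, and Foxd3 was called in no comparison. A link between these sequences and the responses was not tested. Each runs 5′ to 3′ on the plus strand and ends at the base before the GENCODE start of the gene, with 250 bases for Fgf5 and Foxd3 and 183 for Utf1. Capitals mark GC boxes (GGGCGG on either strand), the classical site of SP1. Otx2 has 4 RefSeq start sites, all inside the gene as GENCODE draws it, and is named only.
Fgf5, chr5:98253934-98254183: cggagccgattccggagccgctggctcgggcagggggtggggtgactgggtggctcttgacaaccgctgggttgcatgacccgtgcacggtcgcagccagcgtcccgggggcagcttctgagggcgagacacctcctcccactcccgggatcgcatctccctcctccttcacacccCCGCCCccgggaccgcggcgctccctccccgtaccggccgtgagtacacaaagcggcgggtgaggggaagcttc
Utf1, chr7:139943606-139943788: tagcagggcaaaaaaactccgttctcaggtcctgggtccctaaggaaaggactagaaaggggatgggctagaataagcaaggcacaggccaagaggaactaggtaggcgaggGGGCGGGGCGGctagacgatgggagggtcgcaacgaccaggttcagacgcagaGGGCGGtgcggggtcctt
Foxd3, chr4:99656049-99656298: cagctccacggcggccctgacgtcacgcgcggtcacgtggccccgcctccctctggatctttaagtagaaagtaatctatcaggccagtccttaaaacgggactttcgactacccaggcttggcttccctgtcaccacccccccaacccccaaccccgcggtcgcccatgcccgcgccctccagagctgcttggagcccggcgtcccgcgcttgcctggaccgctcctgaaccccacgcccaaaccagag

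All 3 stretches are rich in G and C: 70.8% in Fgf5, 59.6% in Utf1 and 65.6% in Foxd3, against a median of 52.4% over the 250 bases upstream of 32851 RefSeq starts. The Fgf5 stretch holds 24 CG pairs and that of Foxd3 holds 21, against a median of 6. The GC box occurs once in Fgf5 and 3 times in Utf1, where the first pair of matches shares a base, and 32.7% of all promoter windows hold it. The CCAAT box (CCAAT) is in none of the 3 stretches on either strand and in 33.8% of all windows. Likewise the TATA box (TATAAA), in 12.4% of windows, and the POU octamer (ATGCAAAT), in 1.60%, had no match in them. These matches describe letters and were not measured as sites.

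Libraries held 12299931 to 145810034 counts, and in each group replicate 1 was the deeper by 7.46 to 9.62 times. Where a gene has no count, 3 counts of the total set its upper limit, between 0.0206 and 0.244 CPM (counts scaled to library size). Replicates differed by more than counting noise in every group, with a chi-square per degree of freedom of 46.6 in 2C::GFP+/SA and 17.8 to 22.1 in the others. In the edgeR fit to all 8 libraries, 24.3% of genes were called in 2C::GFP+ against mESC and 0% in 2C::GFP+/SGC against 2C::GFP+. For 2C::GFP+/SA, 28.7% were called against 2C::GFP+, 16.1% against 2C::GFP+/SGC and 45.1% against mESC. A gene was called at an adjusted p under 0.05 (Benjamini-Hochberg over all tested genes), and fold changes are log2 values ± SE from counts. Levels are TPM, which is scaled to gene length, as deposited.

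The 8 genes did not move as a block. Pou3f1, Fgf5 and Sox3 rose with the full treatment against each of the other groups tested. Grhl2 was high in all 3 groups of the 2C::GFP+ genotype and near 1 TPM in mESC. Zic2 and Utf1 were called lower in some comparisons with 2C::GFP+/SA, and Foxd3 and Otx2 were called in none of the 5 comparisons.

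**Figure D1:**
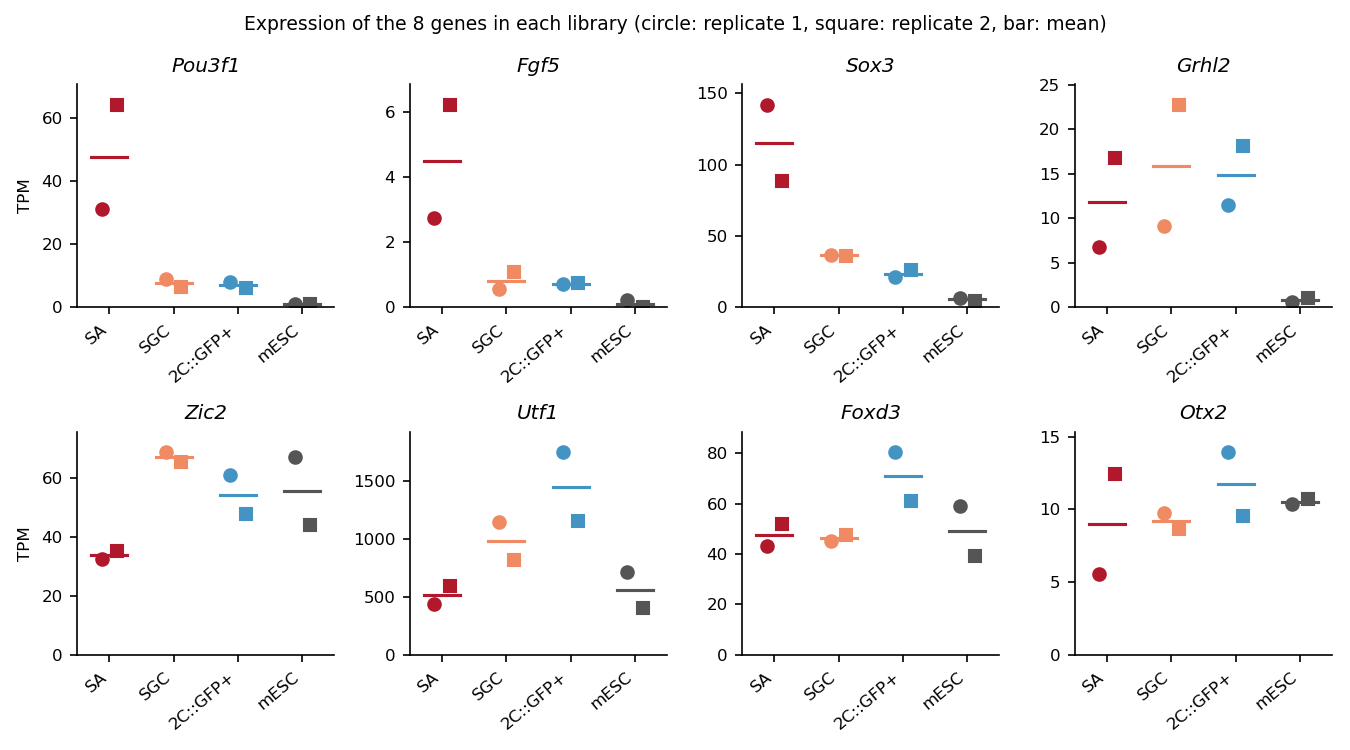
TPM (vertical axis, from 0) of the 8 genes in each library of 2C::GFP+/SA, 2C::GFP+/SGC, 2C::GFP+ and mESC, with circles for replicate 1, squares for replicate 2 and a bar for the mean of 2. Pou3f1, Fgf5 and Sox3 stand highest in both 2C::GFP+/SA libraries, Grhl2 is low in both mESC libraries, and the Zic2 values of 2C::GFP+/SA (32.6 and 35.0 TPM) lie below all others.

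Pou3f1 had 31.1 and 64.1 TPM in 2C::GFP+/SA (replicates 1 and 2, as in all pairs below), 8.83 and 6.37 TPM in 2C::GFP+/SGC, 8.03 and 6.0 TPM in 2C::GFP+, and 1.1 and 1.02 TPM in mESC. Both libraries of 2C::GFP+/SA lay above all others and both mESC libraries below all others, while 2C::GFP+/SGC and 2C::GFP+ overlapped. The log2 fold change of 2C::GFP+/SA was 2.72 ± 0.29 against 2C::GFP+ (adjusted p = 3.28e-05) and 2.73 ± 0.29 against 2C::GFP+/SGC (adjusted p = 9.92e-05). Against mESC it was 5.44 ± 0.34 (adjusted p = 9.93e-08), a 43.4-fold difference. Pou3f1 was also 2.72 ± 0.31 higher in 2C::GFP+ against mESC (adjusted p = 4.38e-05). These 4 calls held when any one of the 8 libraries was left out. Within replicate 1 and within replicate 2, which differ in depth, the difference of 2C::GFP+/SA from 2C::GFP+ was 1.94 and 3.4 on log2(TPM + 0.1).

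Fgf5 was the least abundant of the 8 genes. It had 2.74 and 6.21 TPM in 2C::GFP+/SA, 0.548 and 1.09 TPM in 2C::GFP+/SGC, 0.708 and 0.749 TPM in 2C::GFP+, and 0.222 and 0 TPM in mESC. These levels rest on 219 and 56 counts for 2C::GFP+/SA, on 54 and 11 counts for 2C::GFP+/SGC, on 67 and 9 counts for 2C::GFP+ and on 24 and 0 counts for mESC. The groups 2C::GFP+/SGC and 2C::GFP+ overlapped, and both 2C::GFP+/SA libraries lay above all others. The exact 95% Poisson interval of replicate 2 was 4.69 to 8.06 TPM in 2C::GFP+/SA and 0.343 to 1.42 TPM in 2C::GFP+, which covers counting error only. Absence from mESC replicate 2 allows up to 0.153 CPM, against 0.165 measured in mESC replicate 1.

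Fgf5 rose by 2.58 ± 0.69 in 2C::GFP+/SA against 2C::GFP+ (adjusted p = 0.0125), by 2.67 ± 0.70 against 2C::GFP+/SGC (adjusted p = 0.0202) and by 4.67 ± 0.77 against mESC (adjusted p = 0.000261). The call against 2C::GFP+ ended without 2C::GFP+ replicate 1 (adjusted p = 0.0980) and without 2C::GFP+ replicate 2 (adjusted p = 0.0501). The call against 2C::GFP+/SGC ended without 2C::GFP+/SGC replicate 1 (adjusted p = 0.188) and without 2C::GFP+/SA replicate 2 (adjusted p = 0.0530). For 2C::GFP+ against mESC the value was 2.09 ± 0.76 and missed the threshold (adjusted p = 0.0603). It passed without 2C::GFP+/SA replicate 2 (adjusted p = 0.0450) and without mESC replicate 1 (adjusted p = 0.0306), which leaves an mESC library with no count. It also passed with DESeq2 (adjusted p = 0.0317) and with no low-count filter (adjusted p = 0.0381).

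Sox3 had 142 and 88.2 TPM in 2C::GFP+/SA, 36.9 and 35.8 TPM in 2C::GFP+/SGC, 20.9 and 26.0 TPM in 2C::GFP+, and 6.88 and 4.22 TPM in mESC. It was the one gene of the 8 whose groups all stood apart, in the order 2C::GFP+/SA, 2C::GFP+/SGC, 2C::GFP+ and mESC. The log2 fold change of 2C::GFP+/SA was 2.41 ± 0.35 against 2C::GFP+ (adjusted p = 0.00131), 1.88 ± 0.34 against 2C::GFP+/SGC (adjusted p = 0.00781) and 4.39 ± 0.38 against mESC (adjusted p = 3.06e-05). For 2C::GFP+ against mESC it was 1.97 ± 0.36 (adjusted p = 0.00443). The step between 2C::GFP+/SGC and 2C::GFP+ was 0.54 ± 0.34 and did not pass (adjusted p = 0.632). The call against 2C::GFP+/SGC ended without 2C::GFP+ replicate 2 (adjusted p = 0.0596), 2C::GFP+/SGC replicate 1 (adjusted p = 0.0724) or 2C::GFP+/SGC replicate 2 (adjusted p = 0.157). That of 2C::GFP+ against mESC ended without 2C::GFP+ replicate 2 (adjusted p = 0.0890).

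Grhl2 had 6.78 and 16.8 TPM in 2C::GFP+/SA, 9.09 and 22.7 TPM in 2C::GFP+/SGC, 11.5 and 18.2 TPM in 2C::GFP+, and 0.624 and 1.01 TPM in mESC. The 3 groups of the 2C::GFP+ genotype overlapped and all their libraries lay above both mESC libraries. Replicate 2 was the higher one in each of the 4 groups. The log2 fold change was 4.25 ± 0.64 in 2C::GFP+ against mESC (adjusted p = 0.00621) and 3.91 ± 0.63 in 2C::GFP+/SA against mESC (adjusted p = 0.00415). The value of 2C::GFP+/SA was -0.34 ± 0.53 against 2C::GFP+ (adjusted p = 0.700), and that of 2C::GFP+/SGC against 2C::GFP+ was -0.01 ± 0.53 (adjusted p = 0.997). Within replicates 1 and 2 the difference of 2C::GFP+ from mESC was 4.0 and 4.04 on log2(TPM + 0.1). The call of 2C::GFP+ against mESC ended without 2C::GFP+ replicate 2 (adjusted p = 0.0590), mESC replicate 1 (adjusted p = 0.0642) or mESC replicate 2 (adjusted p = 0.0854), with values of 3.94, 3.89 and 4.48. That of 2C::GFP+/SA ended without mESC replicate 2 (adjusted p = 0.0558).

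Zic2 had 32.6 and 35.0 TPM in 2C::GFP+/SA, 68.8 and 65.2 TPM in 2C::GFP+/SGC, 60.9 and 47.6 TPM in 2C::GFP+, and 67.2 and 44.0 TPM in mESC. Both 2C::GFP+/SA libraries lay below all others, and mESC overlapped with both 2C::GFP+/SGC and 2C::GFP+. Zic2 was called lower in 2C::GFP+/SA against 2C::GFP+/SGC (-0.82 ± 0.24, adjusted p = 0.0390) and against mESC (-0.68 ± 0.24, adjusted p = 0.0357). Against 2C::GFP+ the value was -0.64 ± 0.24 (adjusted p = 0.0669). The call against 2C::GFP+/SGC ended without 2C::GFP+/SA replicate 1 (adjusted p = 0.0844) or 2 (adjusted p = 0.156) and without 2C::GFP+/SGC replicate 1 (adjusted p = 0.176) or 2 (adjusted p = 0.0893). The call against mESC ended without 2C::GFP+/SA replicate 1 (adjusted p = 0.0693) or 2 (adjusted p = 0.141), without 2C::GFP+/SGC replicate 1 (adjusted p = 0.0606) and without mESC replicate 1 (adjusted p = 0.424). It also ended when only the 4 libraries compared were fitted (adjusted p = 0.0571). The value against 2C::GFP+ passed without 2C::GFP+ replicate 2 (adjusted p = 0.0277), mESC replicate 1 (adjusted p = 0.0272) or mESC replicate 2 (adjusted p = 0.0103). The same value passed with no low-count filter (adjusted p = 0.00551) and in the 4 libraries alone (adjusted p = 0.0436).

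Utf1 was the most abundant of the 8 genes in every library. It had 434 and 589 TPM in 2C::GFP+/SA, 1143 and 816 TPM in 2C::GFP+/SGC, 1746 and 1148 TPM in 2C::GFP+, and 708 and 402 TPM in mESC. The groups 2C::GFP+/SA and mESC overlapped at the low end, and 2C::GFP+/SGC and 2C::GFP+ lay above them. Utf1 was called lower in 2C::GFP+/SA against 2C::GFP+ (-1.48 ± 0.41, adjusted p = 0.0471), close to the threshold. That call ended without 2C::GFP+/SA replicate 1 (adjusted p = 0.179) or 2 (adjusted p = 0.256), without 2C::GFP+ replicate 1 (adjusted p = 0.133) or 2 (adjusted p = 0.0716) and without 2C::GFP+/SGC replicate 2 (adjusted p = 0.0941), with values between -1.81 and -1.04. It also ended without a low-count filter (adjusted p = 0.143). Against 2C::GFP+/SGC the value was -0.80 ± 0.40 (adjusted p = 0.265), and it passed as lower with DESeq2 (adjusted p = 0.0241) and in the 4 libraries alone (adjusted p = 0.0291). The value of 2C::GFP+ against mESC was 1.37 ± 0.41 (adjusted p = 0.0648) and passed with DESeq2 (adjusted p = 1.19e-06), DESeq2 size factors in edgeR (adjusted p = 0.0452) and a stricter filter (adjusted p = 0.0285). It also passed without mESC replicate 1 (adjusted p = 0.0119) or 2C::GFP+/SGC replicate 1 (adjusted p = 0.0439).

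Foxd3 had 43.0 and 51.9 TPM in 2C::GFP+/SA, 45.1 and 47.7 TPM in 2C::GFP+/SGC, 80.5 and 61.2 TPM in 2C::GFP+, and 59.2 and 39.0 TPM in mESC. The libraries of 2C::GFP+ lay above all others and the other 3 groups overlapped. The value of 2C::GFP+/SGC against 2C::GFP+ was -0.74 ± 0.23 (adjusted p = 0.327), and that of 2C::GFP+/SA was -0.55 ± 0.23 (adjusted p = 0.0986). With only the 4 libraries compared, Foxd3 passed as lower in 2C::GFP+/SGC (-0.73, adjusted p = 0.0433), as it did with no low-count filter (adjusted p = 0.00857). The value of 2C::GFP+/SA against 2C::GFP+ passed without 2C::GFP+ replicate 2 (adjusted p = 0.0268), without mESC replicate 2 (adjusted p = 0.0295) and with no low-count filter (adjusted p = 0.0342). The value of 2C::GFP+ against mESC, 0.52 ± 0.23 (adjusted p = 0.124), passed without 2C::GFP+ replicate 2 (adjusted p = 0.0430) or mESC replicate 1 (adjusted p = 0.0221), and with no low-count filter (adjusted p = 0.0388).

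Otx2 had 5.55 and 12.4 TPM in 2C::GFP+/SA, 9.76 and 8.68 TPM in 2C::GFP+/SGC, 14.0 and 9.52 TPM in 2C::GFP+, and 10.3 and 10.7 TPM in mESC. The 2 libraries of 2C::GFP+/SA lay on either side of all others except 2C::GFP+ replicate 1. The log2 values lay between -0.48 ± 0.29 (2C::GFP+/SGC against 2C::GFP+, adjusted p = 0.606) and 0.18 ± 0.29 (2C::GFP+ against mESC, adjusted p = 0.706). Without 2C::GFP+/SA replicate 2, Otx2 passed as lower in 2C::GFP+/SA against 2C::GFP+ (-0.86, adjusted p = 0.0376). Within replicate 1 that difference was -1.32 and within replicate 2 it was 0.38, on log2(TPM + 0.1).

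**Figure D2:**
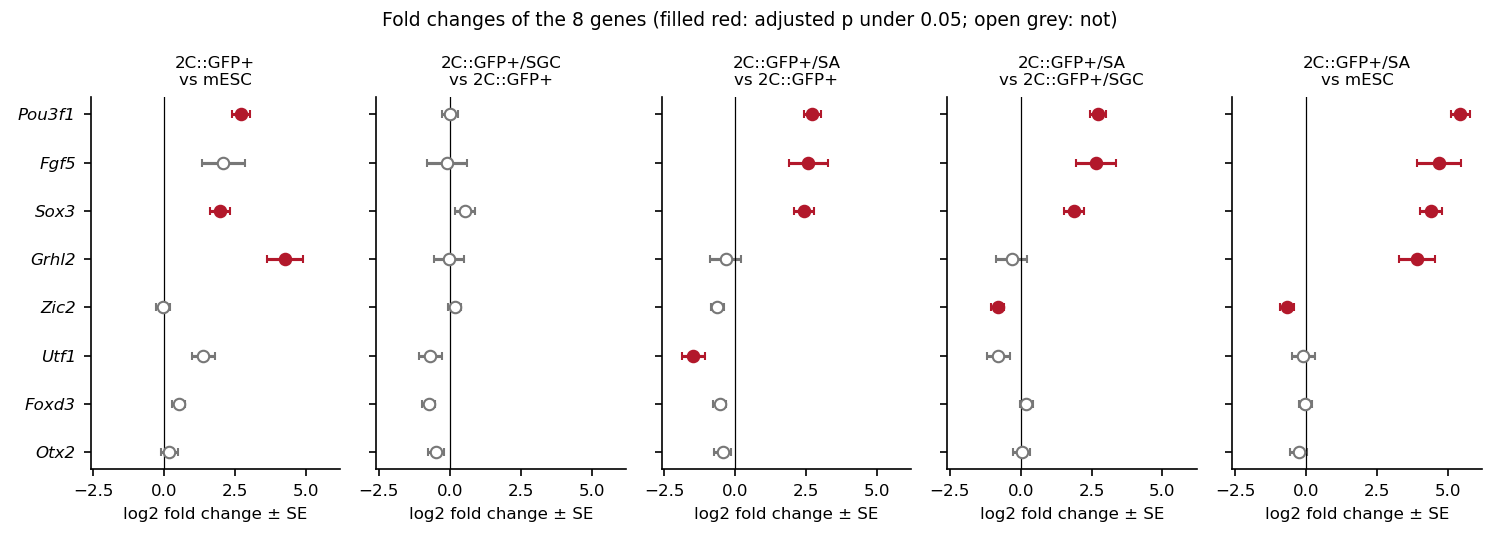
log2 fold changes ± SE (horizontal axis) of the 8 genes in the 5 comparisons, first-named group over the second, filled where the adjusted p was under 0.05. Pou3f1, Fgf5 and Sox3 lie to the right in the 3 comparisons of 2C::GFP+/SA, and no gene is filled in 2C::GFP+/SGC against 2C::GFP+.

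In counts, 3 of the 8 genes were called higher and 1 lower in 2C::GFP+/SA against 2C::GFP+, where 14.9% of all tested genes were higher and 13.8% lower. Against 2C::GFP+/SGC it was also 3 and 1, at 7.92% and 8.18% of all genes. Against mESC it was 4 and 1, at 25% and 20.1%, and in 2C::GFP+ against mESC 3 and 0, at 15.2% and 9.12%. Leaving out 1 library brought the count of called members against 2C::GFP+/SGC down to 1 (without 2C::GFP+/SGC replicate 1) or 2 (without 2C::GFP+/SGC replicate 2 or 2C::GFP+/SA replicate 2). Against 2C::GFP+ it came to 2 without 2C::GFP+ replicate 1 and to 6 without mESC replicate 2. In 2C::GFP+ against mESC it was 2 without 2C::GFP+ replicate 2 or mESC replicate 2, and 5 without mESC replicate 1.

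SGC0946 alone gave no call for any of the 8 genes, and none for any gene in this fit (smallest adjusted p = 0.116). In edgeR 2037 genes had an unadjusted p under 0.05, which is 9.88% of those tested, and Foxd3 was the one member among them. DESeq2 called 288 genes and none of the 8. For Pou3f1 the value was -0.00 ± 0.28, for Zic2 it was 0.18 ± 0.23 and for Fgf5 it was -0.09 ± 0.71. The errors are 1 SE, so changes larger than them could also have been missed. Between the treatments, Pou3f1, Fgf5 and Sox3 were higher in 2C::GFP+/SA. AS8351 and the cytokine changed together between them and cannot be told apart. Comparisons with 2C::GFP+ share its 2 libraries, as those with 2C::GFP+/SA share theirs.

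Other genes of the formative and primed states were called in both directions. Of 19 such genes, 2 rose and 2 fell in 2C::GFP+/SA against 2C::GFP+, where 14.9% of all tested genes were higher and 13.8% lower, with a median log2 value of -0.14, against 0.01 over all tested genes. Those that rose were Nodal (1.46 ± 0.15, adjusted p = 2.34e-05), which encodes a TGF-beta family ligand, and the kinase gene Pim2 (1.60 ± 0.27). Sox4 and Zic5 fell by 1.47 and 1.22. The de novo DNA methyltransferase genes Dnmt3a and Dnmt3b had values of -0.20 ± 0.18 and -0.47 ± 0.33. Against 2C::GFP+/SGC, 2 rose (Nodal and Pim2) and Zic5 fell (median -0.05, against -0.02 over all genes). There 7.92% of all tested genes were higher and 8.18% lower. In 2C::GFP+/SGC against 2C::GFP+, 0 of 19 were called (median -0.04, against 0.03).

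Against mESC, 7 of the 19 rose in 2C::GFP+ and 2 fell, with a median of 0.38, against 0.04 over all genes. There 15.2% of all tested genes were higher and 9.12% lower. Dnmt3a rose by 2.38 ± 0.19 (adjusted p = 4.04e-06), the basic helix-loop-helix gene Tcf15 by 2.20 ± 0.27 and Sox4 by 1.39 ± 0.27, while Cdh2 (N-cadherin) and Lef1 fell by 1.22 and 1.14. Against mESC, 6 of the 19 were higher in 2C::GFP+/SA and 0 lower (median 0.18, against 0.03). For that comparison the shares over all tested genes were 25% and 20.1%.

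**Figure D3:**
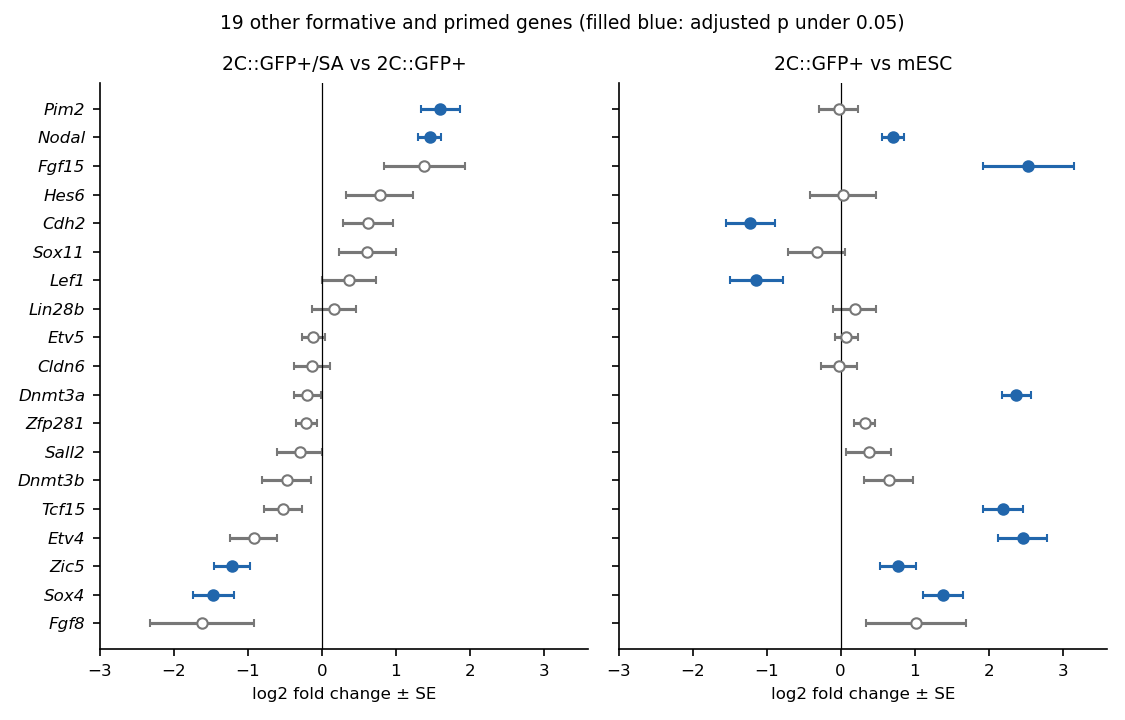
log2 fold changes ± SE (horizontal axis) of 19 other formative and primed genes in 2C::GFP+/SA against 2C::GFP+ and in 2C::GFP+ against mESC, filled where the adjusted p was under 0.05. In the first comparison Nodal and Pim2 are filled to the right and Sox4 and Zic5 to the left. The comparisons share the 2C::GFP+ libraries.

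Family relatives of the 8 genes were listed to see how members of one family compare. Zic2 and Zic5 lie next to each other on chromosome 14 in opposite orientation, with 9757 bases between them. Zic5 had 8.78 and 9.36 TPM in 2C::GFP+/SA against 21.3 and 23.0 TPM in 2C::GFP+ (-1.22 ± 0.24, adjusted p = 0.00265), where Zic2 was not called. Both were called lower against 2C::GFP+/SGC (-1.18 ± 0.24 for Zic5). Against mESC Zic2 was called lower in 2C::GFP+/SA and Zic5 was not (-0.45 ± 0.24, adjusted p = 0.156). In 2C::GFP+ against mESC Zic5 was higher (0.77 ± 0.24, adjusted p = 0.0322) and Zic2 had -0.05 ± 0.23. Among SOX relatives of Sox3, Sox2 had 334 and 461 TPM in 2C::GFP+/SA against 750 and 741 TPM in 2C::GFP+. That was a fall of 0.87 ± 0.13 (adjusted p = 0.000255). Sox1 had 2.08 and 1.95 TPM against 8.80 and 8.88 TPM, a fall of 2.03 ± 0.34 (adjusted p = 0.000651). In per-length levels Sox3 thus stood at 115 ± 37.9 TPM (SD, n = 2) in 2C::GFP+/SA, below Sox2 in both libraries.

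Of the 15 relatives, 14 were tested. Of these, 5 rose and 4 fell in 2C::GFP+/SA against 2C::GFP+, where 14.9% of all tested genes were higher and 13.8% lower. The grainyhead gene Grhl3 fell by 1.21, and Grhl1 had a value of 0.11 ± 0.32. Those that rose were Foxd4 (4.73 ± 0.89, adjusted p = 0.00181), Zic1, Crx, Pou3f3 and Pou3f2. Foxd4 had 2.86 and 6.50 TPM in 2C::GFP+/SA, near the level of Fgf5 (2.74 and 6.21 TPM), and 0.215 and 0 TPM in 2C::GFP+. Zic1, Crx, Pou3f3 and Pou3f2 were of low level, at or below 1.20 TPM in every library. The POU relatives Pou3f2, Pou3f3 and Pou3f4 stayed at or below 1.20 TPM in every library, and Otx1 at or below 1.13 TPM. Against 2C::GFP+/SGC 1 relative was called higher and 4 lower, and against mESC 3 and 2. In that order, 7.92% and 25% of all tested genes were higher and 8.18% and 20.1% lower. In 2C::GFP+ against mESC 3 relatives were called higher (Sox1, Foxd4 and Zic5) and 0 lower, at 15.2% and 9.12% of all genes. No relative was called in 2C::GFP+/SGC against 2C::GFP+.

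Ligands and receptors of the FGF family were given as the setting of Fgf5. Of 7 such genes, Fgfr2 rose (1.52 ± 0.43, adjusted p = 0.0220) and Fgf4 and Fgfr1 fell (by 0.89 and 0.79) in 2C::GFP+/SA against 2C::GFP+. Fgf4, the main ligand of naive cells, had 131 and 158 TPM in 2C::GFP+/SA against 289 and 261 TPM in 2C::GFP+. Fgf4 thus stayed far above Fgf5 (2.74 and 6.21 TPM) in per-length level. Fgfr1 had 21.0 and 27.3 TPM against 41.5 and 44.3 TPM. Fgf4 and Fgfr1 were also called lower against 2C::GFP+/SGC. In 2C::GFP+ against mESC 2 of the 7 were higher (Fgfr3 and Fgf15) and 0 lower. In 2C::GFP+/SA against mESC it was 4 and 2, and in 2C::GFP+/SGC against 2C::GFP+ none. Shares of all tested genes, higher and lower, were 14.9% and 13.8% in 2C::GFP+/SA against 2C::GFP+ and 7.92% and 8.18% against 2C::GFP+/SGC. They were 15.2% and 9.12% in 2C::GFP+ against mESC and 25% and 20.1% in 2C::GFP+/SA against mESC.

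Epithelial genes listed as GRHL2 targets did not share one direction with Grhl2. Of 11 such genes, 3 rose and 3 fell in 2C::GFP+ against mESC, where 15.2% of all tested genes were higher and 9.12% lower. The median of the 11 was -0.02, against 0.04 over all genes. Those higher were the adhesion molecule gene Epcam (1.84 ± 0.22, adjusted p = 0.000161), Ovol1 and the splicing regulator Esrp1, and those lower were Cdh1 (E-cadherin, -0.91 ± 0.14), Cldn4 and Cldn7. Epcam had 241 and 295 TPM in 2C::GFP+ against 54.2 and 97.4 TPM in mESC, and Cdh1 364 and 350 TPM against 605 and 736 TPM. In 2C::GFP+/SA, 1 rose and 5 fell against 2C::GFP+, 1 and 2 against 2C::GFP+/SGC, and 3 and 6 against mESC. In that order, 14.9%, 7.92% and 25% of all tested genes were higher and 13.8%, 8.18% and 20.1% lower. In 2C::GFP+/SGC against 2C::GFP+ none was called.

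Naive and core pluripotency genes were listed for comparison. In 2C::GFP+/SA against 2C::GFP+, 14.9% of all tested genes were higher and 13.8% lower. Of 14 naive genes, 7 fell and 1 rose in 2C::GFP+/SA against 2C::GFP+ (median -0.57, against 0.01 over all genes), among them Tfcp2l1 (-1.19 ± 0.15), Tcl1 (-1.47 ± 0.19) and Esrrb (-0.96 ± 0.13). Their summed level was 2303 and 2550 TPM in 2C::GFP+/SA and 3766 and 3549 TPM in 2C::GFP+. Against 2C::GFP+/SGC 4 fell and 1 rose, against mESC 8 and 1. There 8.18% and 20.1% of all tested genes were lower and 7.92% and 25% higher. In 2C::GFP+ against mESC 4 naive genes fell and 2 rose, at 9.12% and 15.2% of all genes. No naive gene was called in 2C::GFP+/SGC against 2C::GFP+. Of 4 core genes, Sox2 and Pou5f1 fell and Sall4 rose in 2C::GFP+/SA against 2C::GFP+, while Nanog had 1089 and 969 TPM against 1084 and 945 TPM. The summed level of the core genes lay between 2490 and 3192 TPM in all 8 libraries. Markers of ESCs were thus present in every group. T, a gene of the primitive streak, had at most 1.20 TPM in the groups of the 2C::GFP+ genotype and 17.6 and 53.9 TPM in mESC.

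Targets of MEK-ERK and Wnt signalling were listed because 1 of the 2 possible media holds MEK and GSK3 inhibitors. In 2C::GFP+ against mESC, 15.2% of all tested genes were higher and 9.12% lower, with a median of 0.04. Of 14 MEK-ERK targets, 8 rose and 0 fell in 2C::GFP+ against mESC (median 1.39), among them Dusp5 (3.37 ± 0.28), Myc (2.13 ± 0.19) and Spry4 (2.31 ± 0.21). Of 11 canonical Wnt targets, 7 fell and 0 rose (median -1.14), among them Sp5, with 0.805 and 0.991 TPM in 2C::GFP+ against 148 and 139 TPM in mESC. In 2C::GFP+/SA against mESC these counts were 9 and 1 (MEK-ERK, higher and lower) and 2 and 7 (Wnt). There 25% of all tested genes were higher and 20.1% lower. Medium, genotype and group cannot be told apart in the rises of Pou3f1, Sox3 and Grhl2 over mESC. In 2C::GFP+/SA against 2C::GFP+, 3 MEK-ERK targets rose and 1 fell, with Dusp4 up by 2.54 ± 0.42 and Spry2 by 0.67 ± 0.14, and 4 Wnt targets rose and 2 fell. Against 2C::GFP+/SGC 4 and 1 MEK-ERK targets and 3 and 1 Wnt targets were called. In 2C::GFP+/SGC against 2C::GFP+ none of either list was called. For 2C::GFP+/SA, 14.9% of all tested genes were higher and 13.8% lower against 2C::GFP+, and 7.92% and 8.18% against 2C::GFP+/SGC.

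Markers of other cell types were listed because Otx2, Sox3, Pou3f1 and Zic2 are also active outside pluripotent cells. The summed level of 9 neuroectoderm markers was 24.0 and 52.6 TPM in 2C::GFP+/SA, 28.5 and 27.1 TPM in 2C::GFP+/SGC, 25.3 and 18.1 TPM in 2C::GFP+, and 20.4 and 21.9 TPM in mESC. Of 6 tested, Nes rose and Sox1 fell in 2C::GFP+/SA against 2C::GFP+. Sox1 fell against 2C::GFP+/SGC, 3 rose against mESC, and 3 rose and 1 fell in 2C::GFP+ against mESC. In 2C::GFP+/SA against 2C::GFP+, 2C::GFP+/SGC and mESC, 14.9%, 7.92% and 25% of all tested genes were higher and 13.8%, 8.18% and 20.1% lower. In 2C::GFP+ against mESC it was 15.2% and 9.12%. The same shares apply to the mesendoderm counts below. Neurod1 made up 29.0 of the 52.6 TPM in 2C::GFP+/SA replicate 2. Hes5 was listed at 0 in both 2C::GFP+/SA libraries, and Olig2 was at most 0.165 TPM in any library. Of 10 mesendoderm markers (8 tested), Foxa2 and Sox17 rose in 2C::GFP+/SA against 2C::GFP+. The other counts were 0 against 2C::GFP+/SGC, 3 higher and 2 lower against mESC, and 0 higher and 2 lower in 2C::GFP+ against mESC. Their summed level was 14.3 and 19.3 TPM in 2C::GFP+/SA, 12.6 and 13.1 TPM in 2C::GFP+/SGC, 7.98 and 12.4 TPM in 2C::GFP+, and 35.4 and 71.9 TPM in mESC.

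Fibroblast (feeder) markers summed to 38.3 and 47.6 TPM in 2C::GFP+/SA, 24.8 and 26.4 TPM in 2C::GFP+/SGC, 16.9 and 18.2 TPM in 2C::GFP+, and 7.87 and 11.2 TPM in mESC, mostly from Thy1 and Twist1. Of 7 tested of 10, 4 rose and 0 fell in 2C::GFP+/SA against 2C::GFP+, 2 and 1 against 2C::GFP+/SGC, 5 and 0 against mESC, and 3 and 0 in 2C::GFP+ against mESC. Against 2C::GFP+ those that rose were Thy1, Twist1, Col1a1 (by 2.15, adjusted p = 0.00238) and Col1a2 (by 3.02, adjusted p = 0.00624). Against mESC they included Thy1, Twist1, Col1a1 and Acta2, and the gene called lower against 2C::GFP+/SGC was Pdgfrb. Col1a1 had 2.83 and 3.59 TPM in 2C::GFP+/SA. Col3a1, Lum and Postn were at most 0.0319 TPM in any library. Of the neuroectoderm, mesendoderm and fibroblast markers none was called in 2C::GFP+/SGC against 2C::GFP+. The part of other cell types in the member results was not tested, and fewer cells of a type cannot be told apart from less RNA per cell in bulk samples.

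Markers of the 2-cell-like state summed to 9114 and 4366 TPM in 2C::GFP+/SA, 1895 and 1915 TPM in 2C::GFP+/SGC, 689 and 932 TPM in 2C::GFP+, and 4.16 and 11.2 TPM in mESC. Of these 8 genes, 7 rose in 2C::GFP+/SA against 2C::GFP+, 4 against 2C::GFP+/SGC and 8 against mESC, 8 rose in 2C::GFP+ against mESC, and 0 were called in 2C::GFP+/SGC against 2C::GFP+. In the order of these counts, 14.9%, 7.92%, 25%, 15.2% and 0% of all tested genes were called higher. Within 2C::GFP+/SA, replicate 1 had the higher sum of these markers. Sox3 was also higher in replicate 1 (142 against 88.2 TPM in replicate 2). In TPM the other 7 members were higher in replicate 2, as were 70.5% of all tested genes. The median was -0.29 over all genes and -0.74 over the members (replicate 1 minus replicate 2, log2(TPM + 0.1)). For Otx2, Pou3f1, Fgf5 and Grhl2 that difference exceeded 1 in size, as it did for 17.9% of all genes. Both results depend on the scaling. In CPM scaled as in the fit, Zic2 (32.83 and 28.04 CPM) and Foxd3 (34.97 and 33.51 CPM) were higher in replicate 1. On that scale Otx2, Pou3f1, Fgf5 and Grhl2 (20.40 and 40.21 CPM for Grhl2) were still higher in replicate 2, by less than 1 in log2.

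**Figure D4:**
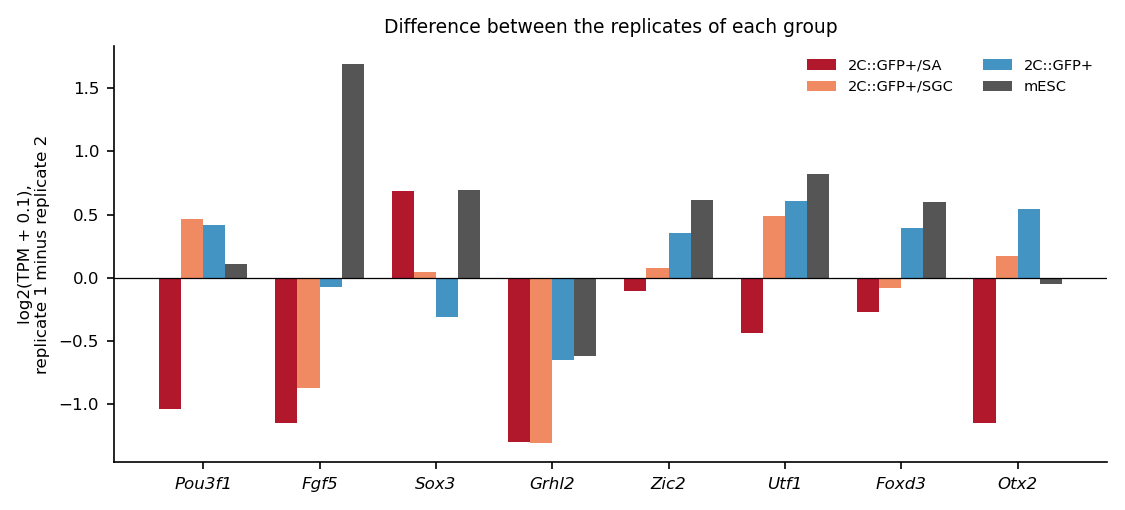
Difference between replicate 1 and replicate 2 in log2(TPM + 0.1) (vertical axis) for the 8 genes, 1 bar per group. In 2C::GFP+/SA, Sox3 stands above 0 (0.68) and the other 7 genes below it, and Grhl2 is below 0 in all 4 groups. The Fgf5 bar of mESC (1.69) rests on 24 and 0 counts.

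Across the 8 libraries, the genes with the most alike pattern were found by the root mean square difference of centred log2 CPM, among 8966 candidates with a mean of at least 10 CPM. For Pou3f1 these were Col6a4 (0.24) and the histone gene Hist1h4i (0.43), whose reads may be shared with near-identical histone copies. Hist1h4i (0.55) and Gadd45g (0.65) came closest to Fgf5. Sh3kbp1 (0.27) and Csrnp1 (0.28) came closest to Sox3, and Csrnp1 had 388 and 220 CPM in 2C::GFP+/SA, with replicate 1 the higher as in Sox3. For Grhl2 they were Aard (0.38) and Dusp9 (0.45). The other members had smaller distances: 0.14 and 0.15 for Otx2 (Def6 and Lypla2), 0.16 for Zic2 (Fancg and Strada) and 0.17 for Foxd3 (Zfp428 and Pepd). For Utf1 the closest genes were Dusp27 (0.17) and Rps6ka4 (0.22). Among the members themselves, Pearson's r over the 8 libraries, which form 4 groups, was 0.95 for Pou3f1 with Sox3 and 0.93 for Pou3f1 with Fgf5. It was 0.93 for Fgf5 with Sox3 and 0.73 for Foxd3 with Utf1. Grhl2 had 0.73 with Pou3f1, 0.73 with Fgf5 and 0.72 with Sox3, and the lowest value was -0.55 (Pou3f1 with Zic2).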

How the data were processed

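The authors deposited 2 tables with 1 column per library: raw counts per gene, left without normalization, and TPM values (per the file names). Per the submitters' processing notes, the tools were STAR 2.7.4a, featureCounts 2.0.0, FastQC 0.11.9 and Trim Galore 0.6.5, with the builds mm10 and GRCm38; the sources used here do not give the annotation release, the strand setting or how multi-mapped reads were treated. The deposited TPM equal the counts divided by 1 length per gene and rescaled, since the length implied for a gene was the same in all libraries to within 1.3e-06 on the log2 scale.

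Columns were matched to groups by genotype and treatment labels, and the 2 KOSR columns to 2C::GFP+ by elimination (0 columns left out). Symbols and positions came from GENCODE M21 and promoters from RefSeq. Counts passed filterByExpr, were scaled by TMM and fitted with edgeR 4.0.16 (R 4.3.3), 1 term per group, robust quasi-likelihood, 4 residual degrees of freedom, tested two-sided in 5 comparisons. SE is the absolute log2 fold change over the root of F. An exact permutation test of 2 against 2 libraries cannot go below p = 0.333. The procedure was tested on simulated counts. Alternatives used DESeq2 1.42.0, other scaling, filters and sample sets.

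The members and lists were chosen with earlier results of these data known. Beside the 8 members, 12 lists were described by counts and medians. Some list genes are not reported here and are left out of the counts. Named genes are the members, up to 4 called genes per list and comparison by smallest adjusted p, and the 2 most alike genes per member. Dnmt3a, Dnmt3b and some low-level relatives and markers were named after their values were seen.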

Additional observations from a re-analysis of the deposited data

How the results depend on the processing

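Pou3f1's 4 calls, those of Sox3 in 2C::GFP+/SA against 2C::GFP+ and mESC, and that of Fgf5 against mESC held under every alternative, including each left-out library. In 2C::GFP+/SGC against 2C::GFP+, where 0 genes were called, DESeq2 called 288 genes, no low-count filter 499, and the 4 libraries alone 326, with 1 of the 8 genes called (Foxd3) under each of the last 2; leaving out 1 library gave 0 to 431. In 2C::GFP+/SA against 2C::GFP+/SGC, the 4 libraries alone called 2210 genes, they and DESeq2 each called 5 of the 8 (Utf1 in addition), and left-out libraries gave 1207 to 3324 genes and 1 to 4 of the 8. The same range was 2890 to 5861 genes and 2 to 6 of the 8 in 2C::GFP+/SA against 2C::GFP+, and 2872 to 5869 genes and 2 to 5 of the 8 in 2C::GFP+ against mESC, where DESeq2 and no filter each called 5 of the 8. Without both 2C::GFP+ libraries (tried only once the values were known) the members called were 4 against 2C::GFP+/SGC and 5 against mESC. These are the counts of the main fit, where 16.1% and 45.1% of all tested genes were called.

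With the replicate number as a block, 284 genes were called in 2C::GFP+/SGC against 2C::GFP+. In 2C::GFP+ against mESC 6070 of 20608 genes were called, against 5016 in the main fit. In 2C::GFP+/SA against 2C::GFP+ it was 6830, against 5910. Of the 8 genes, 6 were called in each of the last 2 comparisons. Those added were Fgf5, Foxd3 and Utf1 (adjusted p = 0.0449, 0.0361 and 0.0046) in 2C::GFP+ against mESC, and Zic2 and Foxd3 (adjusted p = 0.0054 and 0.0337) in 2C::GFP+/SA against 2C::GFP+. Grhl2 in 2C::GFP+ against mESC came to 4.15 ± 0.22 with the block (adjusted p = 3.29e-10), against 4.25 ± 0.64 without it. The numbers are not known to pair the libraries: deviations of same-numbered libraries correlated at 0.0411 to 0.142. Replicate 1 was the deeper library in each group, and whether the numbers mark a shared run was not tested.

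Signs turned in 36 of 576 alternative values, none called either way; the cause was not tested. In 2C::GFP+/SGC against 2C::GFP+, Pou3f1 came to 0.026 (DESeq2 size factors), 0.026 (DESeq2), 0.019 (no filter), 0.027 (stricter filter) and 0.0046 (4 libraries), and Grhl2 to 0.013, 0.024, 0.0050 and 0.011 under the first 4. Foxd3 in 2C::GFP+/SA against mESC came to 0.069, 0.070 and 0.033 under DESeq2 size factors, DESeq2 and the stricter filter. Values with 1 library left out ranged as follows. For 2C::GFP+ against mESC they ran from -0.21 to 0.44 for Otx2, -0.37 to 0.36 for Zic2. For 2C::GFP+/SGC against 2C::GFP+ they ran from -0.28 to 0.32 for Pou3f1, -0.036 to 0.45 for Zic2, -0.76 to 0.53 for Grhl2, -0.49 to 0.47 for Fgf5. For 2C::GFP+/SA against mESC they ran from -0.35 to 0.41 for Foxd3, -0.71 to 0.15 for Otx2, -0.51 to 0.46 for Utf1. For 2C::GFP+/SA against 2C::GFP+/SGC they ran from -0.39 to 0.43 for Otx2, -0.84 to 0.41 for Grhl2. For 2C::GFP+/SA against 2C::GFP+ they ran from -0.86 to 0.11 for Grhl2.

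Depth limits Fgf5 most: replicate 2 of each group held 0 to 56 counts.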
